A study of Mus musculus with 36 samples.

Results

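The presomitic mesoderm and Notch clock genes are 10 mouse genes that act where paraxial mesoderm forms and is divided into somites: Tbx6, Msgn1, Mesp2, Ripply2, Dll1, Dll3, Notch1, Hes7, Lfng and Nrarp. They were chosen by name from this biology, with earlier results of these data known. Every probe that carries one of these symbols in the deposited table of non-normalised intensities was used, across all 16 regions of the series. The table holds 30869 gene symbols, and 9 of the 10 members had a probe, with 10 probes in all because Tbx6 has 2. Detection on at least 1 array was needed for testing, and 7 of the 10 members were among the 15556 symbols that passed.

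The series profiled dissected axial progenitor regions and their neighbours from outbred MF1 wild-type mouse embryos on 36 Illumina MouseWG-6 v2.0 arrays, each carrying amplified RNA from a pool of 6 to 74 dissected pieces. The headfold-stage embryo at E7.5 was taken as an anterior piece (A, 3 arrays), a posterior piece (P, 2) and a far posterior piece (PP, 2). At E8.5 the regions were the rostral node (RN, 2 arrays), the border of node and streak (NSB, 3 arrays), the lateral epiblast at caudal levels (CLE, 3 arrays) and 2 levels of the primitive streak, rostral (St1, 2 arrays) and caudal (St5, 2 arrays). From E9.5 on, tail buds gave the chordoneural hinge (CNH) at E9.5 (2 arrays), E10.5 (2), E11.5 (3), E12.5 (2) and E13.5 (2), and the tissue just behind it (P-CNH) at E9.5, E10.5 and E11.5 (2 each). Endoderm and underlying mesoderm had been taken off the CLE, whereas the other pieces held several cell types. Because every array is bulk RNA, fewer cells of a type and less RNA per cell cannot be told apart.

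Presomitic mesoderm is made from progenitors in the streak and later in the tail bud. In it, Notch signalling drives an oscillation of target genes, the segmentation clock, whose cycles set the somite borders. Transcripts of clock genes cycle in each embryo, and a pool averages over the phases.

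The arrays were hybridised in 3 batches of 12, on 6 BeadChips of 6 arrays each. Batch 1 comprised the RN, St1 and St5 arrays, both tail regions of E10.5 and NSB replicates 1 and 2. These are tied to the other batches by NSB replicate 3 (batch 3) alone. Values are log2 of background-corrected, quantile-normalised intensity, so a difference of 1.00 is a 2-fold difference. A probe was taken as detected on an array when its deposited detection p-value, the share of negative-control beads brighter than it, was under 0.01. A linear model with 16 regions and 3 batches was fitted to each of 21712 probes with limma, which left 18 residual degrees of freedom, and fitted means are region levels with the batch differences removed. A gene was called when its adjusted p, corrected over all 21712 probes of a comparison by the Benjamini-Hochberg method, was at most 0.05 and its fold difference at least 1.5. Where a region is undetected on all its arrays, the fold is printed as at least the value obtained with each undetected array set no lower than its own faintest detected probe; this uses array means without batch terms, and is left out where the regions share no batch. Medians over members include members undetected in both regions. Differences are given with their standard error, arrays are listed in replicate order, and a gene with 2 probes is represented by the brighter. Several comparisons share the same arrays, so their results are not independent of each other.

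Of the 10 member probes, 8 were detected on at least 1 of the 36 arrays. Notch1 and Nrarp were detected on 36 arrays, Dll1 on 35, Tbx6 on 33 by its first probe and on 32 by its second, Hes7 on 27, Dll3 on 22 and Ripply2 on 3. Msgn1, a transcription factor gene of the presomitic mesoderm, has no probe on the array. Mesp2, which encodes the transcription factor that marks the next somite border, was detected on 0 of 36 arrays, with a lowest detection p-value of 0.112 in NSB replicate 3. Lfng, which encodes a glycosyltransferase that modifies Notch1 and is itself a clock gene, was also detected on 0 arrays, with lowest values of 0.0192 in E7.5 P replicate 2 and 0.0246 in E10.5 CNH replicate 2. Their raw intensities ranged from 37.7 to 108 for Mesp2 (median 70.3) and from 48.4 to 170 for Lfng (median 75.3). Whether these transcripts were absent or the probes failed to report them cannot be told from the arrays. In limma's test for any difference between the 16 regions, all 7 tested members were called, as were 35.6% of all probes; with an offset of 100 Hes7 was not called, which left 6.

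**Figure D1:**
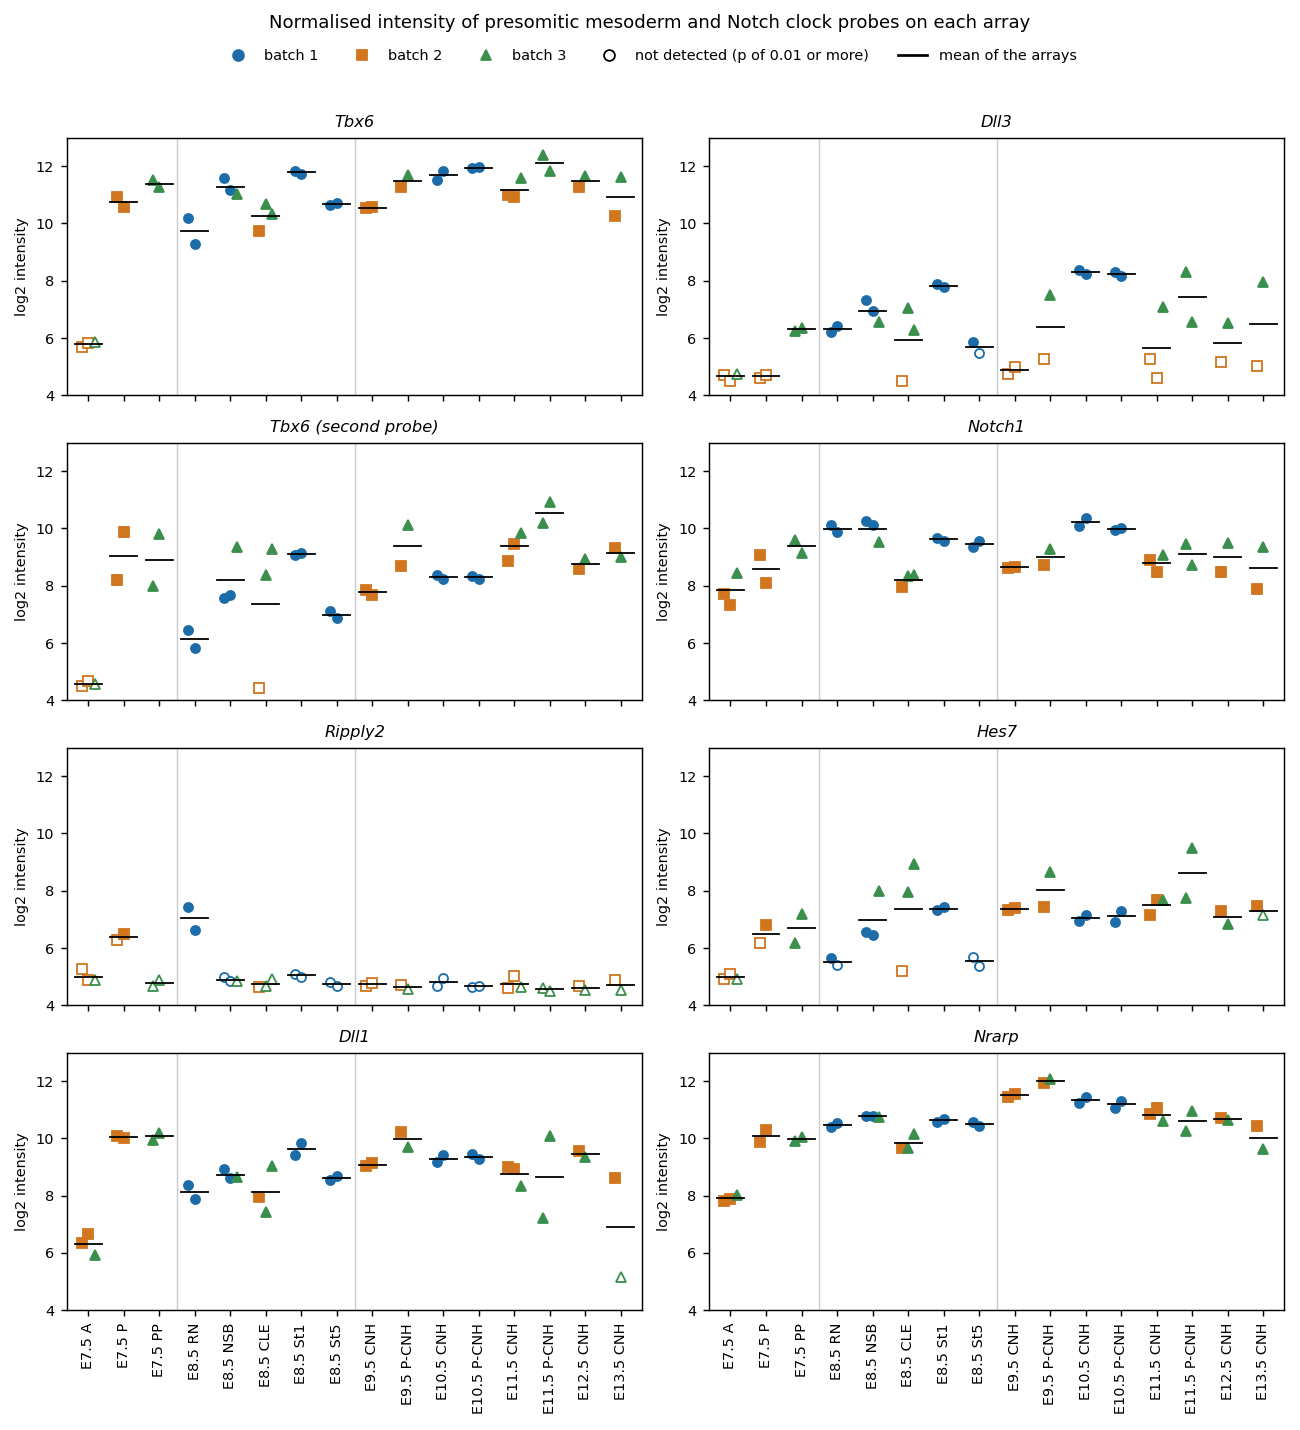
Log2 intensity of the 8 tested member probes on all 36 arrays, by region, with colour and shape for batch, open symbols for arrays without detection and a bar at the mean of the arrays. The first Tbx6 probe is undetected only in E7.5 A, the second also in CLE replicate 1, and Dll3 is undetected on every array of batch 2.

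Tbx6 encodes the T-box transcription factor of presomitic mesoderm. Its first probe read 5.68, 5.83 and 5.85 in E7.5 A, 10.91 and 10.59 in P and 11.51 and 11.27 in PP. The E7.5 A arrays were all undetected and the lowest of the 36, and the P and PP arrays all lay far above them. At E8.5 it read 10.20 and 9.30 in RN, 11.57, 11.17 and 11.04 in NSB, 9.75, 10.68 and 10.35 in CLE, 11.84 and 11.73 in St1, and 10.64 and 10.71 in St5. Both St1 arrays were above every other E8.5 array, whereas RN overlapped CLE. In the CNH it read 10.54 and 10.57 at E9.5, 11.53 and 11.83 at E10.5, 10.99, 10.92 and 11.58 at E11.5, 11.28 and 11.66 at E12.5, and 10.25 and 11.62 at E13.5. Both E9.5 arrays lay below those of E10.5, E11.5 and E12.5, whereas the 2 arrays of E13.5 span most of the range. The E9.5 arrays are in batch 2 and the E10.5 arrays in batch 1. For this probe batch 2 was lower than batch 1 by 0.92 ± 0.38 in the model. The fitted means were 11.06 at E9.5 and 11.26 at E10.5. E11.5 replicates 1 and 2 and E12.5 replicate 1 share batch 2 with E9.5. In the P-CNH the first probe read 11.26 and 11.70 at E9.5, 11.92 and 11.97 at E10.5, and 12.40 and 11.85 at E11.5. By this probe the P-CNH arrays exceeded the CNH arrays of the same age at each of the 3 ages.

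The fitted Tbx6 means ran from 12.04 in E11.5 P-CNH, 11.69 in E9.5 P-CNH, 11.68 in E12.5 CNH and 11.53 in E10.5 P-CNH down to 10.37 in CLE, 10.26 in St5, 9.33 in RN and 6.09 in E7.5 A. In the upper and middle part of the order lay E11.5 CNH (11.47), St1 (11.37), PP (11.30), E10.5 CNH (11.26), P (11.26), E13.5 CNH (11.15), E9.5 CNH (11.06) and NSB (10.96). Of the 15 steps between neighbours in this order, 6 separated batch-adjusted array values that did not overlap, among them NSB above CLE by 0.59, St5 above RN by 0.92 and RN above E7.5 A. In the test for any difference between regions the adjusted p was 1.97e-12; no range is given, because E7.5 A was undetected.

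The 2 Tbx6 probes did not behave alike on every array. Across fitted means of the 16 regions their Pearson correlation was 0.915, and without E7.5 A, where both were undetected, it was 0.802 over 15 regions. Within batches it was 0.918 over 12 arrays of batch 1, 0.798 in batch 2 (0.617 without E7.5 A, 10 arrays) and 0.894 in batch 3 (0.459 without E7.5 A, 11 arrays). The median of the first probe minus the second was 3.55 in batch 1, 2.35 in batch 2 and 1.73 in batch 3, but the ranges of the gap overlapped (2.58 to 3.98, 0.71 to 5.31 and 0.94 to 3.51). On single arrays the gap reached 5.31 in CLE replicate 1, where only the second probe was undetected, and fell as low as 0.71 in E7.5 P replicate 2. The second probe read 8.20 and 9.88 in E7.5 P and 9.31 and 9.00 in E13.5 CNH. In both regions the order of the replicates is the opposite of the order by the first probe. The order was likewise reversed in PP, NSB, St1, St5, E9.5 CNH, both E10.5 regions and E11.5 P-CNH. Among regions with 2 arrays, only RN, E9.5 P-CNH and E12.5 CNH kept the same order by both probes. The second probe also read 4.43, 8.37 and 9.28 in CLE, a spread that left CLE (6.79) below RN (6.89) in its fitted means, while the first probe had RN lower. At E10.5 it read 8.36 and 8.23 in P-CNH and 8.39 and 8.24 in CNH, which overlap, unlike the first probe. Its highest fitted mean was St1 (9.86) and its lowest E7.5 A (4.40). Without batch terms the St1 mean was 9.11, below 10.54 in E11.5 P-CNH, so the first place of St1 rests on the batch terms. For this probe batch 3 was higher than batch 1 by 1.72 ± 0.98 in the model. Only 1 of the second probe's 15 steps lay between regions without overlap, against 6 for the first.

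**Figure D2:**
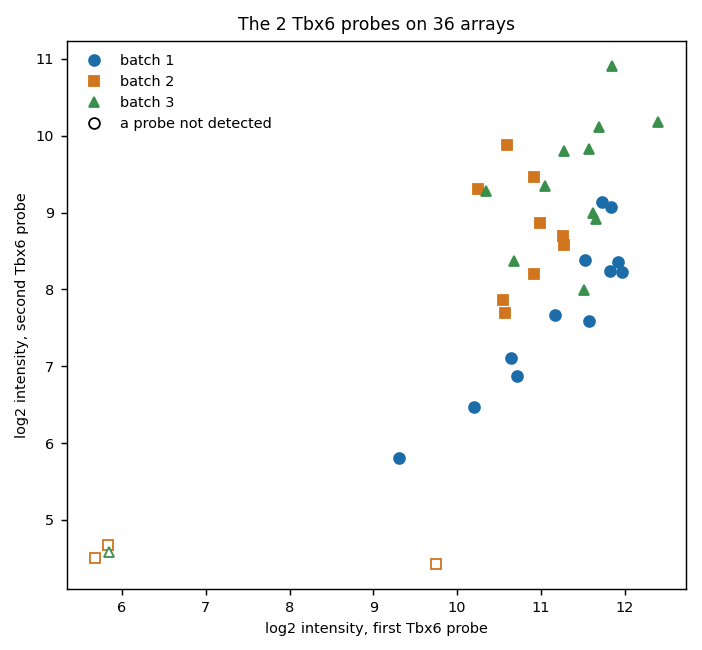
Log2 intensity of the second Tbx6 probe against that of the first on 36 arrays, with colour and shape for batch and open symbols where a probe was undetected. The median gap is 3.55 in batch 1 against 2.35 and 1.73 in batches 2 and 3, with overlap between the batches, and CLE replicate 1 is the open square near 9.75.

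Ripply2 encodes a co-repressor that ends Tbx6 and Mesp2 activity at the somite border. It read 7.45 and 6.63 in RN and 6.27 and 6.50 in E7.5 P. RN replicates 1 and 2 and P replicate 2 were its only detected arrays; P replicate 1 had a detection p-value of 0.0160. On all other 32 arrays it was undetected, at 5.25 or lower. Its fitted means were 7.03 in RN and 6.33 in P, then 5.04 in St1 and no lower than 4.60 elsewhere, so RN and P were the only regions set apart, by steps of 0.70 and 1.29.

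Dll1 encodes a Notch ligand. It read 6.35, 6.67 and 5.93 in E7.5 A, 10.09 and 10.02 in P and 9.94 and 10.20 in PP. P and PP overlapped each other and lay far above A. At E8.5 it read 8.39 and 7.90 in RN, 8.94, 8.63 and 8.64 in NSB, 7.95, 7.42 and 9.05 in CLE, 9.43 and 9.84 in St1, and 8.54 and 8.70 in St5. St1 was above every other E8.5 array, and RN overlapped CLE. In the CNH it read 9.03 and 9.14 at E9.5, 9.19 and 9.41 at E10.5, 9.00, 8.95 and 8.34 at E11.5, 9.58 and 9.36 at E12.5, and 8.64 and 5.16 at E13.5. The last value was its only undetected array of 36, and it comes from the array with the fewest detected probes (10814). In the P-CNH it read 10.23 and 9.72 at E9.5, 9.44 and 9.27 at E10.5, and 7.23 and 10.07 at E11.5. The low value at E11.5 was replicate 1, which had 12280 detected probes. PP had the highest fitted mean (10.38), followed by E9.5 P-CNH (9.89) and St1 (9.80), and CLE (8.19), E13.5 CNH (6.81) and E7.5 A (6.11) the lowest. Only 2 of the 15 steps in this order were free of overlap.

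Dll3 encodes a divergent ligand that acts within the Notch-receiving cell. It was undetected on every array of batch 2 and detected on all arrays of batch 3 except E7.5 A replicate 3 and on all of batch 1 except St5 replicate 2. Batch 2 was lower than batch 1 by 2.36 ± 0.68 in the model, so its levels can be read with least doubt inside batch 1. There it read 6.21 and 6.41 in RN, 7.32 and 6.96 in NSB replicates 1 and 2, 7.88 and 7.79 in St1, 5.87 and 5.49 in St5, 8.37 and 8.23 in E10.5 CNH, and 8.29 and 8.18 in E10.5 P-CNH. Both E10.5 regions overlapped each other and were above St1, which was above NSB, RN and St5 in turn without overlap. In batches 2 and 3 it ranged from 4.50 in CLE replicate 1 to 8.32 in E11.5 P-CNH replicate 1. The 2 highest fitted means were those of E10.5, at 7.32 in CNH and 7.25 in P-CNH. No order is given at the low end, where the batch term places undetected regions such as E9.5 CNH (6.26) above RN (5.33), which was detected.

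Notch1 encodes the receptor. It read 7.72, 7.34 and 8.45 in E7.5 A, 9.09 and 8.08 in P and 9.59 and 9.16 in PP. A and P overlapped, whereas PP was above A. In batch 1 it read 10.13 and 9.86 in RN, 10.25 and 10.11 in NSB, 9.68 and 9.55 in St1, 9.36 and 9.57 in St5, 10.07 and 10.36 in E10.5 CNH, and 9.95 and 10.01 in E10.5 P-CNH. St1 and St5 overlapped and were lower than the other regions of that batch. In the other 2 batches it ranged from 7.89 in E13.5 CNH replicate 1 to 9.54 in NSB replicate 3 from E8.5 on, and batch 2 was lower than batch 1 by 1.41 ± 0.41. The range of its fitted means, 1.23, was the narrowest of the members, from 9.54 in E10.5 CNH to 8.43 in CLE and 8.31 in E7.5 A.

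Hes7 encodes a bHLH repressor and Notch target that oscillates in the clock. It read 4.92, 5.10 and 4.93 in E7.5 A, 6.17 and 6.80 in P and 6.18 and 7.19 in PP. A was undetected throughout and below P and PP, which overlapped. At E8.5 it read 5.64 and 5.42 in RN, 6.54, 6.46 and 7.98 in NSB, 5.19, 7.96 and 8.93 in CLE, 7.32 and 7.44 in St1, and 5.68 and 5.39 in St5. Both St5 arrays, RN replicate 2 and CLE replicate 1 were undetected, and the CLE arrays spanned all other E8.5 values. In the tail bud it read 7.34 and 7.38 in E9.5 CNH, 7.42 and 8.66 in E9.5 P-CNH, 6.93 and 7.15 in E10.5 CNH and 6.90 and 7.30 in E10.5 P-CNH. At E11.5 it read 7.17, 7.68 and 7.66 in CNH and 7.73 and 9.503 in P-CNH, followed by 7.30 and 6.83 in E12.5 CNH and 7.48 and 7.14 in E13.5 CNH. P-CNH and CNH overlapped at E10.5 but not at E9.5 or E11.5, where the margin between them was under 0.10. Batch-adjusted array values overlapped at E11.5 too, at 7.00 to 8.77 in P-CNH and 6.93 to 7.66 in CNH. Fitted means were highest in St1 (8.13) and E11.5 P-CNH (7.89). Without batch terms the St1 mean was 7.38, below 8.62 in E11.5 P-CNH and 8.04 in E9.5 P-CNH. Batch 3 was higher than batch 1 by 1.48 ± 0.82 in the model, so the first place of St1 rests on the batch terms. The low end is not ordered, because the batch term places St5 (6.28), undetected, above PP (5.96), detected on both arrays.

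Nrarp encodes an ankyrin-repeat protein that is induced by Notch and dampens it. It read 7.82, 7.88 and 8.02 in E7.5 A, 9.87 and 10.30 in P and 9.92 and 10.06 in PP. A was detected but far below P and PP, which overlapped. At E8.5 it read 10.41 and 10.55 in RN, 10.77, 10.78 and 10.75 in NSB, 9.67, 9.66 and 10.15 in CLE, 10.58 and 10.70 in St1, and 10.57 and 10.44 in St5. CLE was the lowest of the 5 regions and NSB the highest, both without overlap. In the CNH it read 11.45 and 11.56 at E9.5, 11.25 and 11.45 at E10.5, 10.86, 11.05 and 10.60 at E11.5, 10.70 and 10.64 at E12.5, and 10.42 and 9.63 at E13.5. In the P-CNH it read 11.92 and 12.06 at E9.5, 11.08 and 11.31 at E10.5, and 10.25 and 10.98 at E11.5. Its mean was thus highest at E9.5 in both tissues, and batches 2 and 3 differed little from batch 1 (0.07 ± 0.34 and -0.03 ± 0.31). Fitted means ran from 11.98 in E9.5 P-CNH and 11.45 in E9.5 CNH to 9.84 in CLE and 7.89 in E7.5 A, with 6 of 15 steps free of overlap.

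**Figure D3:**
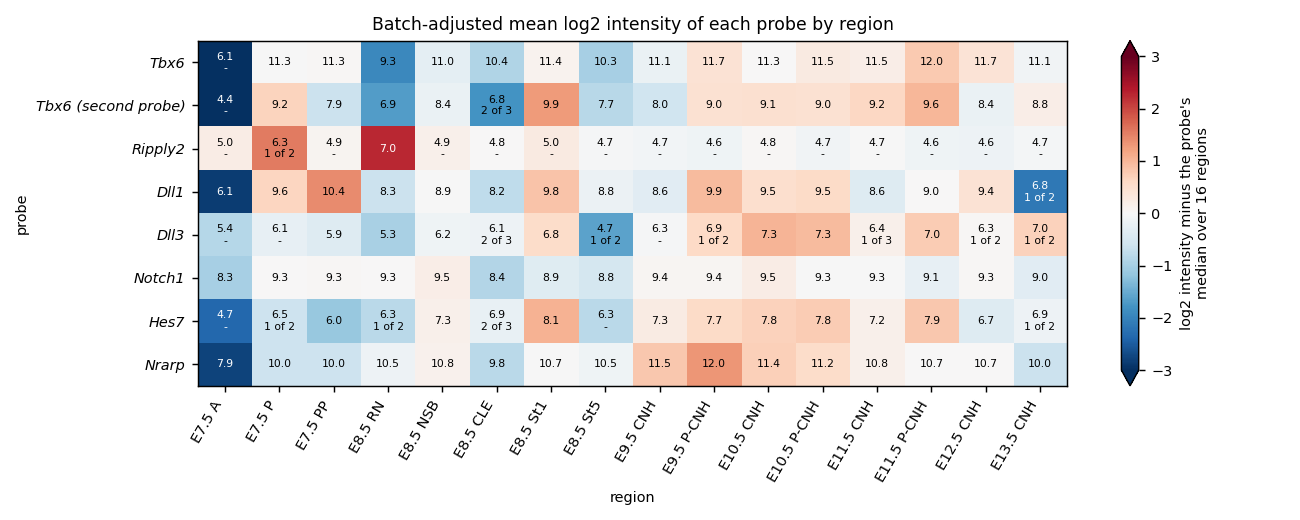
Heat map of batch-adjusted log2 means of the 8 tested member probes in 16 regions, with the mean written in each cell, colour for its distance from the probe's own median over the regions, and a dash or a count where none or only some of the arrays were detected. E7.5 A is undetected for Tbx6 and Hes7 and is the lowest region for Dll1 (6.11) and Nrarp (7.89), and Ripply2 stands out in RN (7.03) and E7.5 P (6.33).

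Across the 16 fitted means, given here as description, Hes7 and Nrarp had a Pearson correlation of 0.808, Tbx6 and Hes7 0.785, Tbx6 and Nrarp 0.779, Dll3 and Hes7 0.776, Notch1 and Nrarp 0.742 and Tbx6 and Dll1 0.721. Without E7.5 A the values over 15 regions were 0.614, 0.551, 0.328, 0.802, 0.541 and 0.405 in the same order. That region, where most members are low, carried much of the likeness, except for Dll3 and Hes7. Tbx6 and Dll3 likewise went from 0.596 to 0.719 without it. The fitted means of Dll3 and Hes7 include undetected regions that the batch term places above detected ones, which limits these correlations.

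The genes outside the group whose fitted means were most like those of a member were sought among 13394 genes, again as description over 16 regions. For Tbx6 they were Wnt3a (0.943), Rspo3 (0.935) and Chst7 (0.927), and for Hes7 Fgf8 (0.902), Fgf17 (0.887) and Arhgap9 (0.882). Dll1 was most like Rai14 (0.913), Hoxb1 (0.876) and Lrp8 (0.868), and Dll3 most like Nudt7 (0.860), Rnf144a (0.841) and Wnt10a (0.834). The limit given above for the fitted means of Dll3 and Hes7 holds here too. Nrarp was most like Hoxa4 (0.923), Mmd (0.916) and Hoxa2 (0.899). For Notch1 the 3 were T (0.817), Ifitm1 (0.772) and Defcr3 (0.739).

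The sequences around the transcription start sites of Tbx6, Dll3, Hes7 and Nrarp are printed here from RefSeq GRCm38.p6, as windows of 300 bases that run from 250 before the start site to 50 after it. They lie at chr7:126781233-126781532 on the plus strand for Tbx6, chr7:28301736-28302035 on the minus strand for Dll3, chr11:69120203-69120502 on the plus strand for Hes7 and chr2:25180508-25180807 on the plus strand for Nrarp. Capitals mark matches on either strand to 5 motifs: T-box (TCACACCT), RBPJ (TGGGAA), TCF/LEF (CTTTGA), E-box (CANNTG) and N-box (CACNAG), where N is any base.
Tbx6: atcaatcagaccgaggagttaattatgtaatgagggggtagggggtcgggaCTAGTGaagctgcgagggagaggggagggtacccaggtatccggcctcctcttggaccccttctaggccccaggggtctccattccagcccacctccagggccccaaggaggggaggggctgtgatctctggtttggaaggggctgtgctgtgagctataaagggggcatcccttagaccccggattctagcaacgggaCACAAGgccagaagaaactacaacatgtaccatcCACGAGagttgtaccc
Dll3: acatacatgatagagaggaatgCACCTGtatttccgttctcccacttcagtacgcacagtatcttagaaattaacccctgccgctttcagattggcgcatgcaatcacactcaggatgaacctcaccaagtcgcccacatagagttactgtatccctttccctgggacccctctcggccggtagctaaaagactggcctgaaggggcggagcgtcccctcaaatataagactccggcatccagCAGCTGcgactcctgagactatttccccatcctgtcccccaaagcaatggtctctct
Hes7: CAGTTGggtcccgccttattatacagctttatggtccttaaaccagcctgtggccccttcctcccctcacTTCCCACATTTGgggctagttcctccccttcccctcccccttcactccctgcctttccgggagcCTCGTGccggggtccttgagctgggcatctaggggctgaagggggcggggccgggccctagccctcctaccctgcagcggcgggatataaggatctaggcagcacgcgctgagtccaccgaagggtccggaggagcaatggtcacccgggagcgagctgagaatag
Nrarp: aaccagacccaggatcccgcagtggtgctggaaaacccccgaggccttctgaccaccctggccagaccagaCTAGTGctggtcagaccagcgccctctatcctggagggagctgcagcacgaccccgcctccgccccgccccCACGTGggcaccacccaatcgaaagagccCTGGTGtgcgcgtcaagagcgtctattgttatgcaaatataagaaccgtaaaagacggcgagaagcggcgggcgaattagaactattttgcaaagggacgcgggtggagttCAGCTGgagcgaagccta
Tbx6 has 3 N-boxes, Dll3 has 2 E-boxes, Hes7 has 1 RBPJ match, 2 E-boxes and 1 N-box, and Nrarp has 2 E-boxes and 2 N-boxes. In Hes7 the RBPJ match and an E-box adjoin in TTCCCACATTTG, and no match overlaps another in these 4 windows. Among the 11 windows of the 10 members, Dll1 having 2 start sites, the T-box was in 0, RBPJ in 3, TCF/LEF in 1, the E-box in 9 and the N-box in 7. Among all 32851 windows these motifs were in 1.28%, 25.6%, 16%, 72.3% and 42.5%. Such matches describe the sequence and say nothing about binding.

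Between P and A at E7.5, 4 of 7 members were called and all 4 were higher in P, against 2.73% of all probes called (331 higher, 262 lower). Tbx6 was higher by 5.16 ± 0.27, at least 25.9-fold (adjusted p 1.01e-11), and its second probe by 4.84 ± 0.75, at least 7.91-fold (adjusted p 0.000247). Dll1 was higher by 3.48 ± 0.66, 11.1-fold (adjusted p 0.00242). Nrarp was higher by 2.14 ± 0.24, 4.42-fold (adjusted p 3.02e-06). Ripply2 was higher by 1.34 ± 0.21, at least 1.26-fold (adjusted p 0.000350), with P replicate 1 undetected; this bound is under the 1.5-fold threshold, and with an offset of 100 the call was lost (0.52). The 6 members detected in either region all had positive differences, and the median of 7 was 1.74 against -0.06 for all genes. Hes7 (1.74 ± 0.62, undetected in A and so at least 1.35-fold, adjusted p 0.199) and Notch1 (1.00 ± 0.29, adjusted p 0.0696) were not called, and Dll3 was undetected on all arrays of both regions. Leaving out P replicate 2, where Notch1 read 8.08, gave a Notch1 call (adjusted p 0.0102), but this leaves 1 P array, with the spread taken from other regions. Notch1 was also called with cyclic loess (1.02, adjusted p 0.0298) and on leaving out E11.5 P-CNH replicate 1 (adjusted p 0.0437) or replicate 2 (0.0434). Hes7 was called without the 5 arrays on which fewest probes were detected (1.97, adjusted p 0.00434), which again leaves 1 P array. In batch 2 alone, the only batch with both regions, the same 4 members were called, with Tbx6 at 5.00 (adjusted p 0.000266), Dll1 at 3.55 (0.000511), Nrarp at 2.23 (0.00402) and Ripply2 at 1.32 (0.0456).

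Other genes of the same biology were counted in lists, each beside the all-gene median of -0.06 for this comparison. Of 12 posterior presomitic and tail bud genes, 10 were called higher in P and 1 lower (median 3.30), the largest being Wnt3a at 7.09, at least 68.5-fold (adjusted p 3.77e-15), Cdx2 (5.93), Nkx1-2 (4.93) and Evx1 (4.63). Of 12 tested anterior presomitic and somite genes (17 listed), 4 were higher and 1 lower (median 0.36), led by Aldh1a2 at 5.20, at least 21.6-fold, Meox1 (3.77) and Mesp1 (2.29), with Cer1 at -1.83. Of 12 tested Wnt and FGF clock genes (13 listed), 5 were higher and 0 lower (median 0.75), with Nkd1 (2.14), Axin2 (2.06), Dusp6 (1.51) and Efna1 (1.12) the largest. Among Notch genes outside the members, Mfng, of 11 tested processing genes, was lower by 2.11, at least 3.03-fold (adjusted p 0.0253; list median -0.12). Dll1 was the only 1 of 4 tested Notch ligands called (median 0.36) and Nrarp the only 1 of 6 tested Notch targets (median 0.46). No receptor was called among the 3 tested, and none of 12 tested nuclear-complex and endocytosis genes.

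Between PP and P, 1 of 7 members was called, against 0.792% of all probes (85 higher, 87 lower): Ripply2 was lower in PP, where both arrays were undetected, by 1.48 ± 0.26 (adjusted p 0.00476). Without PP replicate 1 the difference was -1.36 and the call was lost (adjusted p 0.0934), with 1 PP array left. It was also lost without background correction (-0.66, adjusted p 0.0671) and with an offset of 100 (-0.56, under 1.5-fold). PP and P share no batch, so this difference rests on the batch terms. Tbx6 (0.05 ± 0.32, adjusted p 0.977; second probe -1.31 ± 0.91, adjusted p 0.664), Dll1 (0.79 ± 0.80, adjusted p 0.791) and Nrarp (0.00) were not called, and the members' median was 0.00 against 0.02 for all genes. Of the anterior presomitic and somite genes, 0 were higher and 4 lower (median -0.97): Tcf15 (-3.63), Meox1 (-2.21), Cer1 (-1.69, undetected in PP) and Ripply2. Of the posterior genes 1 was higher, Cdx4 by 2.49, undetected in P (median 0.36), and of the Wnt and FGF clock genes 1, Efna1 by 1.60 (median 0.25).

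At E8.5, St1 was compared with each other region. Against RN, 2 of 7 members were called, with 2.24% of all probes (100 higher, 387 lower in St1). Tbx6 was higher in St1 by 2.03 ± 0.29, 4.09-fold (adjusted p 7.36e-05), while its second probe, at 2.97 ± 0.80, was not called (adjusted p 0.0556). The size of the first probe's difference depended on the setting, and was 3.56 with the ComBat-type adjustment. Ripply2 was lower in St1 by 1.99 ± 0.23, at least 2.69-fold (adjusted p 5.05e-06). Its difference shrank to -0.89 with an offset of 100 and was still called. Hes7 (1.85 ± 0.67, adjusted p 0.303), Dll3 (1.52 ± 0.51, adjusted p 0.197) and Dll1 (1.49 ± 0.70, adjusted p 0.795) were not called. The St1 and RN arrays did not overlap for any tested member, also not for Notch1 (-0.38) and Nrarp (0.16), so this does not set those 3 apart. The standard errors of Hes7, Dll3 and Dll1 come mostly from the spread of replicates in batches 2 and 3. With the 12 arrays of batch 1 alone, the differences were the same and all were called: Hes7 (standard error 0.16, adjusted p 1.66e-05), Dll3 (0.16, 7.12e-05) and Dll1 (0.19, 0.000372), beside Tbx6 (0.24, 0.000214) and Ripply2 (0.22, 9.90e-05). In the pooled fit Hes7 was also called without CLE replicate 1 (adjusted p 0.0276), where it was undetected at 5.19, and Dll3 without E7.5 A replicate 3 (adjusted p 0.0439), where it was undetected at 4.73. The members' median was 1.49 against 0.02 for all genes.

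In St1 against RN, 6 of 12 posterior presomitic and tail bud genes were called higher and 0 lower (median 1.42), led by Wnt3a (3.34), Fgf17 (2.83), Fgf8 (2.81) and Evx1 (2.66). Of 12 tested anterior presomitic and somite genes, 0 were higher and 4 lower (median -0.58): Foxc2 (-3.27), Tcf15 (-2.37), Ripply2 and Meox1 (-1.95). Efna1 was the only Wnt and FGF clock gene called (2.40; list median 0.71). Of 5 notochord and node marker genes, 4 were lower in St1 (median -2.55), with Shh at -4.23. The summed intensity of the 5 was 6040 and 7246 in RN, where Shh had the brightest probe and 5 of 5 were detected. It was 652 and 722 in St1, where Chrd had the brightest probe. There Foxj1 was undetected on both arrays and Noto on replicate 1. Whether this difference in cell types accounts for the members' differences was not tested.

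Against NSB, 0 of 7 members were called in limma, with 0 at an unadjusted p under 0.05, beside 1.42% of all probes (3 higher, 306 lower in St1). The differences were 0.87 ± 0.67 for Hes7, 0.85 ± 0.70 for Dll1, 0.69 ± 0.51 for Dll3, 0.41 ± 0.29 for Tbx6, -0.14 for Nrarp and -0.57 ± 0.31 for Notch1, with a median over members of 0.41 against 0.02. In batch 1 alone, with NSB replicates 1 and 2, Hes7 (adjusted p 0.00700), Dll1 (0.0249) and Dll3 (0.0264) were called at the same differences, whereas Tbx6 was not (0.439). Notch1 had an adjusted p of 0.0388 there but was under 1.5-fold. With the BeadChip as a further term in batch 1, 1042 of all probes were called, against 309 in the pooled fit. Of the notochord and node genes, 4 of 5 were lower in St1 (median -2.67), and their summed intensity in NSB was 5400, 6038 and 4813. Whether this bears on the members was not tested. Efna1 (1.33), a Wnt and FGF clock gene (list median 0.32), was the only gene of the pathway lists called.

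Against CLE, which shares no batch with St1, 0 of 7 members were called in limma, with 1 at an unadjusted p under 0.05, beside 0.106% of all probes (22 higher, 1 lower in St1). That member was Tbx6 (1.00 ± 0.44, unadjusted p 0.0330), and its second probe differed by 3.07 ± 1.24. Dll1 (1.61 ± 1.08), Hes7 (1.26 ± 1.03) and Nrarp (0.82 ± 0.39) had positive differences without a call. Each of these had an unadjusted p over 0.05 in limma. For Hes7 the array means without batch terms were nearly equal, 7.38 in St1 and 7.36 in CLE, so its difference rests on the batch terms. The members' median was 0.82 against 0.01. Ripply2 was undetected on all arrays of both regions. No gene of the pathway or marker lists was called.

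Against St5, 2 of 7 members were called, with 3.27% of all probes (290 higher, 419 lower in St1). Dll3 was higher in St1 by 2.15 ± 0.51, 4.44-fold (adjusted p 0.0143), and Tbx6 by 1.11 ± 0.29, 2.16-fold (adjusted p 0.0279). The Dll3 difference was 1.20 with an offset of 100 and was still called. Without a batch term neither was called, at the same differences (adjusted p 0.372 for Dll3 and 0.177 for Tbx6). Cyclic loess also lost the Tbx6 call (1.16, adjusted p 0.0978). The second Tbx6 probe, at 2.12 ± 0.80, was not called (adjusted p 0.256). Both calls were lost, at similar differences (1.05 to 1.17 for Tbx6, 1.96 to 2.34 for Dll3) with larger standard errors, when any of the 4 arrays was left out, which leaves 1 array in that region: St1 replicate 1 (Tbx6 11.84, Dll3 7.88), St1 replicate 2 (11.73, 7.79), St5 replicate 1 (10.64, 5.87) or St5 replicate 2 (10.71, 5.49). The adjusted p was then 0.144 to 0.247 for Tbx6 and 0.0640 to 0.206 for Dll3. In batch 1 alone both were called (adjusted p 0.00816 and 3.75e-06), and so were Hes7 (1.85, adjusted p 1.24e-05) and Dll1 (1.01, adjusted p 0.00347), which were not called in the pooled fit (adjusted p 0.213 for Hes7). With the BeadChip as a further term in batch 1, 2813 of all probes were called, against 709 in the pooled fit. Hes7, undetected in St5, was at least 3.28-fold higher, and the pooled fit called it without CLE replicate 1 (adjusted p 0.0207; 5.19 there). The 6 members detected in either region had positive differences, and the median of 7 was 1.01 against 0.01; Ripply2 was undetected in both.

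Several lists held called genes in St1 against St5. Of the posterior genes 2 were higher (median 0.48): Hes3 by 3.77, at least 9.12-fold, and Nkx1-2 by 2.32. Of the anterior genes 2 were higher and 1 lower (median -0.02): Aldh1a2 (2.54, at least 4.51-fold), Meox1 (1.74) and Mesp1 (-3.21). In the Notch lists, Maml2 (3.02, 8.10-fold, adjusted p 0.000303) and Dtx4 (1.82, 3.53-fold, adjusted p 0.00393) were higher, 2 of 12 tested nuclear-complex and endocytosis genes (median 0.07). Hey1 was lower (-1.10, adjusted p 0.00471), 1 of 6 tested targets (median -0.40). Dll3 was the only 1 of 4 tested ligands called (median 0.44). Efna1 was lower in St1 by 1.70, the only Wnt and FGF clock gene called (median -0.39). Of 4 tested endothelial genes (6 listed), 3 were lower in St1 (median -2.13), with Cdh5 at least 3.60-fold lower, beside Flt1 and Esam. Their summed intensity was 1406 and 1702 in St5 and 376 and 363 in St1. Esam had the brightest probe in both, and Cdh5 and Pecam1 were undetected in St1. Whether the endothelial share bears on the members was not tested.

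Between P-CNH and CNH, limma called 0 of 7 members at any age. At E9.5, 1 member had an unadjusted p under 0.05, beside 0.17% of all probes called (6 higher, 31 lower in P-CNH): Tbx6 at 0.63 ± 0.30, with a 95% interval from 0.02 to 1.24. Dll1 was at 1.28 ± 0.73 and Nrarp at 0.53 ± 0.27, and the median was 0.53 against -0.01. At E10.5, 0 had an unadjusted p under 0.05, beside 0.318% of all probes (2 higher, 67 lower), with Tbx6 at 0.27 ± 0.29 (second probe -0.02 ± 0.80), Dll1 and Hes7 at 0.06 each, Nrarp at -0.16 and a median of -0.06 against 0.01. At E11.5, 0 had an unadjusted p under 0.05, beside 0.161% (4 higher, 31 lower), with Hes7 at 0.64 ± 0.66, Tbx6 at 0.57 ± 0.28, Dll1 at 0.40 ± 0.69 and a median of 0.40 against 0.00. Within single batches, Tbx6 differed by 0.27 at E10.5 (batch 1, adjusted p 0.788), by 0.71 at E9.5 (batch 2, with 1 P-CNH array) and by 0.55 at E11.5 (batch 3, with 1 CNH array). Leaving out together the same 5 arrays, among them E11.5 P-CNH replicate 1 (Dll1 7.23, Hes7 7.73), gave a call of Dll1 at E9.5 (1.13, adjusted p 0.0112) and at E11.5 (1.64, adjusted p 0.00286), and of Hes7 at E11.5 (1.86, adjusted p 0.0289). At E11.5 this leaves 1 P-CNH array, replicate 2, with the spread taken from other regions.

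No gene of the pathway lists was called between P-CNH and CNH at any age. Of the notochord and node genes, 2 of 5 were lower in P-CNH at E9.5, 3 at E10.5 and 1 at E11.5, with Shh at least 21.4-fold lower at E9.5 and at least 34.9-fold at E10.5, undetected on those P-CNH arrays, and at -4.30 at E11.5, where 1 of 2 P-CNH arrays was detected. Their summed intensity was 2275 and 2454 in E9.5 CNH against 414 and 316 in P-CNH, 4079 and 3022 against 394 and 401 at E10.5, and 5322, 3759 and 2176 against 566 and 507 at E11.5. Whether the members depend on this was not tested.

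Whether the P-CNH minus CNH difference itself differed between ages was tested directly in limma. Between E10.5 and E9.5, 0 members were called and 0 had an unadjusted p under 0.05, beside 0% of all probes. The largest difference was Dll1 at -1.22 ± 1.01, and Nrarp, at -0.69 ± 0.37, had the lowest unadjusted p (0.0769). Between E11.5 and E9.5 the counts were again 0 and 0, beside 0.0276%, with Nrarp at -0.69 ± 0.35. Between E11.5 and E10.5 they were 0 and 0, beside 0.00461%. Between the E10.5 tail difference and the St1 minus NSB difference at E8.5, all in batch 1 but for NSB replicate 3, they were 0 and 0, beside 0.742%. No pathway list gene was called in any of the 4.

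From NSB at E8.5 to the CNH at E9.5, which share no batch, limma called 0 of 7 members and 0 had an unadjusted p under 0.05, beside 5.04% of all probes (444 higher, 651 lower in CNH). Nrarp, at 0.66 ± 0.34, had the lowest adjusted p (0.356), and the median was 0.09 against 0.04. With the 5 arrays of fewest detected probes left out, Nrarp was called at 0.72 (adjusted p 0.0261). It was also called with the ComBat-type adjustment (0.87, adjusted p 0.0176). Notch1 went from -0.13 to -1.32 without a batch term and was then called (adjusted p 0.0395). Of the posterior genes 3 were higher and 0 lower (median 0.80): Cyp26a1 (3.15), Fgf17 (2.15) and Rspo3 (1.12). Of the anterior genes 2 were lower, Aldh1a2 (-3.20, undetected in CNH) and Meox1 (-2.21), at a median of -0.23. Among Notch targets Hey1 (1.13, adjusted p 0.0299; median 0.65), among nuclear-complex and endocytosis genes Dtx4 (1.76, adjusted p 0.0396; median -0.16) and among Wnt and FGF clock genes Efna1 (2.22; median 0.70) were higher. Of 5 blood genes 3 were higher, Hbb-y, Hba-x and Hbb-bh1, and the summed blood level was 1701, 1049 and 935 in NSB and 35434 and 36007 in E9.5 CNH; Hbb-y and Alas2 were undetected in NSB. Hbb-y had the brightest probe in E9.5 CNH. Cldn4, 1 of 5 surface ectoderm genes, was lower. Whether blood bears on the members was not tested.

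From NSB to the CNH at E10.5, limma called 0 of 7 members and 2 had an unadjusted p under 0.05, beside 7.14% of all probes (769 higher, 781 lower in CNH): Dll3 at 1.16 ± 0.51 (adjusted p 0.256) and Nrarp at 0.58 ± 0.26 (adjusted p 0.271). In batch 1 alone Dll3 was called at the same difference (standard error 0.16, adjusted p 0.000208). With the BeadChip as a further term in batch 1, 4361 of all probes were called, against 1550 in the pooled fit. The ComBat-type adjustment gave calls of Nrarp (1.05, adjusted p 0.00182) and Dll3 (1.05, adjusted p 0.0485). The BeadChip as random block gave a call of Dll3 (1.47, adjusted p 0.0436). The members' median was 0.52 against -0.01. Of 3 tested Notch receptors, Notch4 (2.96, 7.78-fold, adjusted p 1.37e-05) and Notch3 (2.60, 6.05-fold, adjusted p 0.000458) were higher in CNH (median 2.60). Of 6 tested Notch targets, Hey2 (2.21, at least 2.91-fold, adjusted p 0.0142) and Hey1 (1.94, adjusted p 2.24e-06) were higher (median 0.82). Of the posterior genes 4 were higher and 2 lower (median 0.71), the largest being Hes3 (-3.24), Cyp26a1 (2.67), Fgf17 (2.30) and Nkx1-2 (-1.84). Of the anterior genes 1 was higher, Tcf15 (1.94), and 2 lower, Aldh1a2 (at least 8.52-fold) and Mesp1 (at least 2.22-fold), both undetected in CNH, at a median of 0.09. Of the Wnt and FGF clock genes Efna1 (1.64) and Dusp6 (0.94) were higher (median 0.59). Of the marker lists, 3 of 5 blood genes were higher (summed level 28656 and 29465 in E10.5 CNH), 1 of 4 tested endothelial genes was higher, and the visceral endoderm genes Ttr and Amn, 2 of 7, were lower; none was tested as an explanation of the members.

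Along the CNH, limma called 0 of 7 members between E11.5 and E9.5, with 1 at an unadjusted p under 0.05, beside 5.1% of all probes (617 higher, 490 lower at E11.5): Nrarp at -0.64 ± 0.24 (adjusted p 0.134). In batch 2 alone Nrarp was at -0.55 (adjusted p 0.165). The median was -0.07 against -0.01. Among the anterior genes Aldh1a2 (at least 3.57-fold, undetected at E9.5) and Meox1 (2.30) were higher, and of the posterior genes 2 were lower, Nkx1-2 (-1.96) and Cdx4 (-1.64), at -0.13. Dtx4 was lower by 3.08 (adjusted p 7.37e-06; list median 0.17), and 2 of 5 surface ectoderm genes were higher. With the 5 arrays of fewest detected probes left out, Nrarp was called at -0.65 (adjusted p 0.00421). Between E12.5 and E11.5, limma called 0 of 7 members and 0 had an unadjusted p under 0.05, beside 0.226% of all probes (36 higher, 13 lower). The largest difference was Dll1 at 0.84 ± 0.65, which was called at 0.79 (adjusted p 0.0178) without the same 5 arrays. The members' median was -0.10 against 0.00, no pathway list gene was called, and Trp63 was the only marker gene called (higher).

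Between E13.5 and E11.5, 1 of 7 members was called, beside 7.05% of all probes (859 higher, 672 lower at E13.5). Nrarp was lower at E13.5 by 0.80 ± 0.24, 1.74-fold (adjusted p 0.0422). Without E13.5 CNH replicate 2, where Nrarp read 9.63, the difference was -0.41, under 1.5-fold, with 1 E13.5 array left. Over all removals of a single array the difference ranged from -1.23 to -0.41. With a replicate block the difference was -0.59 and not called (adjusted p 0.210). Within batches it was -0.53 in batch 2 and -0.97 in batch 3, each with 1 E13.5 array and so no test of the call. Its adjusted p rose above 0.05 in 23 of the 36 fits that left out a single array. Dll1 differed by -1.74 ± 0.65 (adjusted p 0.110), with an undetected value of 5.16 in replicate 2, and was called without E11.5 P-CNH replicate 1 (adjusted p 0.0358) or replicate 2 (0.0360) and with the BeadChip as random block (0.0406). It was also called without E13.5 CNH replicate 1 (8.64; adjusted p 0.00123), when the undetected array stood alone for E13.5 and other regions gave the spread. The median was -0.31 against -0.04.

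Of the posterior presomitic and tail bud genes, 8 of 12 were lower at E13.5 and 0 higher (median -1.31 against -0.04), led by Fgf17 (-1.97), Fgf8 (-1.93), Cdx4 (-1.75) and Wnt3a (-1.69). Of the anterior genes 2 were called higher, Mesp1 (at least 2.12-fold) and Foxc2 (at least 1.49-fold, a bound under the threshold), both undetected at E11.5, and 1 lower, Tcf15 (-1.31), at a median of -0.03. Of the nuclear-complex and endocytosis genes Maml2 was higher (1.43, adjusted p 0.0492) and Mib1 lower (-1.07, adjusted p 0.00733), at a median of -0.15. Aph1a, of the processing genes, was lower (-1.06, adjusted p 0.00104; median 0.10), and Nrarp was the only Notch target called (median -0.52). Dusp4 (-1.59) and Tnfrsf19 (-0.73) were lower among the Wnt and FGF clock genes (median -0.24). Of 4 tested endothelial genes 3 were higher, with summed levels of 1045 and 1096 at E13.5 and 315, 338 and 292 at E11.5. Esam had the brightest probe, and Flt1 and Cdh5 were undetected on E13.5 replicate 2. Of 5 surface ectoderm genes 2 were higher, Krt14 (4.44) and Trp63 (2.81). The summed levels of the 5 were 4211 and 4261 at E13.5 against 824, 455 and 1006 at E11.5. At E13.5 Krt14 had the brightest probe and Krt15 was undetected on both arrays. Noto (-2.29) was the only notochord and node gene called. Whether any of these tissues bears on the members was not tested.

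**Figure D4:**
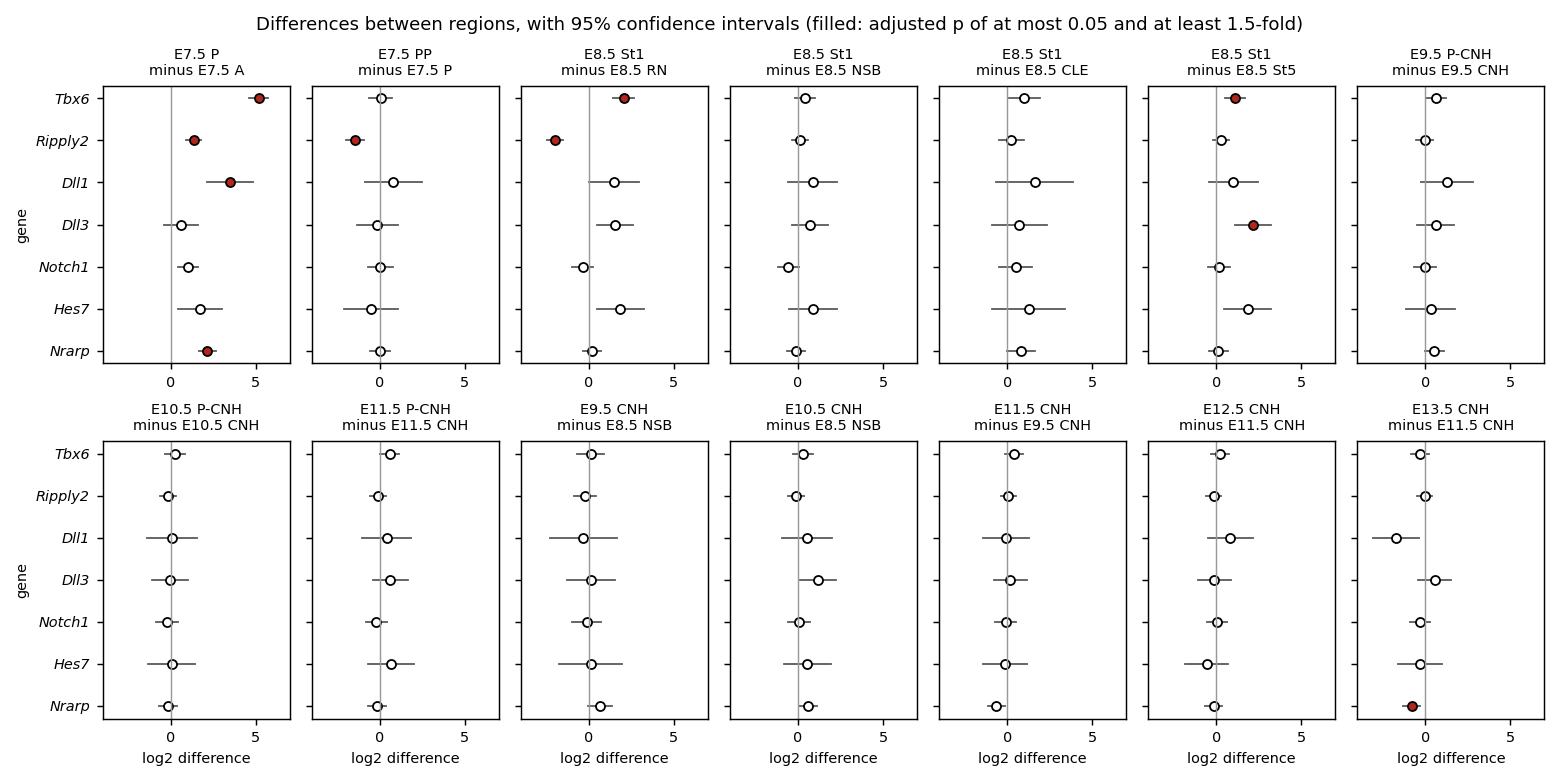
Log2 difference with 95% interval for the 7 tested members in 14 comparisons of regions, with filled symbols for called genes. Calls lie at E7.5 P minus A (Tbx6 5.16, Dll1 3.48, Nrarp 2.14, Ripply2 1.34), PP minus P (Ripply2 -1.48), St1 minus RN (Tbx6 2.03, Ripply2 -1.99), St1 minus St5 (Dll3 2.15, Tbx6 1.11) and E13.5 minus E11.5 CNH (Nrarp -0.80).

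The marker lists for tissues that a dissection may carry along were also counted at E7.5. Between P and A, Shh was lower (-2.14, 1 of 5 notochord and node genes) and Apob higher (1 of 7 visceral endoderm genes). Between PP and P, Rbp4 and Afp were higher (2 of 7). The summed visceral endoderm level was 2104, 2163 and 10890 in A, 10763 and 6066 in P and 37659 and 17969 in PP. Ttr had the brightest probe in PP, and Afp and Rbp4 were undetected in P. Whether endoderm bears on the members was not tested. Of 8 neural genes 3 were tested and 0 were called in any comparison, and of 4 sclerotome and myotome genes none had a detected probe. The paraxial mesoderm marker list, which includes Tbx6, had 4 of 6 genes tested: 2 higher in P than A, 2 lower in PP than P, 1 higher and 3 lower in St1 than RN, and 2 higher in St1 than St5. In the later comparisons 1 was lower in E9.5 CNH than NSB, 1 higher in E10.5 CNH than NSB, 1 higher at E11.5 than E9.5, and 1 higher and 1 lower at E13.5 than E11.5. Its summed level was 784 to 1214 in A, where Tcf15 had the brightest probe, and 4163 and 4476 in P.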

How the data were processed

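The authors deposited, for each of 36 arrays, an intensity and a detection p-value per probe, neither normalised. Intensity is the mean bead fluorescence of a probe in scanner units, and the detection p-value moves in steps of 1 in 936. R 4.3.3 and limma 3.58.1 corrected background with the normexp model on inferred negative controls (neqc, offset 16), normalised by quantiles and took log2. Of 45281 probes, 21712 were detected (detection p-value below 0.01) on 1 array or more and kept, and 23569 left out. The model held 16 regions and 3 batches, with empirical Bayes variances (prior degrees of freedom 3.85), and Benjamini-Hochberg correction was made within each comparison. Calls needed a difference of 1.5-fold or more with an adjusted p no higher than 0.05. The authors' variance-stabilising transformation with robust spline normalisation (lumi) and their ComBat step were replaced, because lumi was not installed and a batch term in the model uses the degrees of freedom openly. Replicates were pools and were not treated as paired.

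All member probes are named. In each list and comparison the counts and up to 4 called genes with the largest difference are named, and for each tested member but Ripply2 the 3 genes with the most similar fitted means among 13394. The lists were Notch ligands, receptors, glycosylation and processing, nuclear complex and endocytosis, and targets; anterior presomitic and somite genes; posterior presomitic and tail bud genes; Wnt and FGF clock genes; and markers of other tissues. The members and lists were chosen with earlier results of these data known. Lists were counted and not tested as sets. Of the comparisons, 14 were between a pair of regions or ages and 4 tested a difference of differences.

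Alternatives tried were cyclic loess, an offset of 100, no background correction, no batch term, a ComBat-type adjustment, the BeadChip as a random block, each batch alone, no filter, a filter on every array of a region, a replicate block, the second Tbx6 probe and leaving out each array. Leaving out 5 arrays together and batch 1 with the BeadChip as block were chosen after seeing the data. The scripts were tested on simulated data. Promoter windows and figures were made with Python 3.11.15 and matplotlib 3.10.9.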

Additional observations from a re-analysis of the deposited data

How the results depend on the processing

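Regions had 2 or 3 pooled replicates, batch 1 is tied to the others by NSB replicate 3 alone, and without it St1 minus CLE, E9.5 CNH minus NSB and the test over 16 regions could not be fitted. Signal over background ran from 2.17 (CLE replicate 1) to 12.2 (PP replicate 2), which limits how far a low probe can be told from absence on the dim arrays. For PP minus P the members called went from 1 to 0 without background correction or with an offset of 100, and lay between 0 and 1 with single arrays left out. For St1 minus RN they went from 2 to 4 with ComBat-type adjustment, 5 in batch 1 alone, 1 with the second Tbx6 probe and 5 without the 5 arrays of fewest detected probes. For St1 minus NSB they went from 0 to 3 in batch 1 alone and 1 without the 5 arrays. For St1 minus CLE they went from 0 to 1 (Tbx6) with no batch term. For St1 minus St5 they went from 2 to 1 with cyclic loess (Dll3), 0 with no batch term, 4 with ComBat-type adjustment, 4 in batch 1 alone, 1 with the second Tbx6 probe (Dll3) and 4 without the 5 arrays, and lay between 0 and 3 with single arrays left out. Without the 5 arrays they went from 0 to 1 for E9.5 P-CNH minus CNH (Dll1), 2 for E11.5 P-CNH minus CNH (Dll1, Hes7, with 1 P-CNH array left), 1 for E11.5 minus E9.5 CNH (Nrarp) and 1 for E12.5 minus E11.5 CNH (Dll1). For E9.5 CNH minus NSB they went from 0 to 1 with no batch term (Notch1), ComBat-type adjustment (Nrarp), no filter (Mesp2, detected nowhere) and without the 5 arrays (Nrarp). For E10.5 CNH minus NSB they went from 0 to 2 with ComBat-type adjustment, 1 with the BeadChip as random block and 1 in batch 1 alone. Calls over all probes rose as well without the 5 arrays. They went from 37 to 206 for E9.5 P-CNH minus CNH and from 1095 to 4017 for E9.5 CNH minus NSB. Along the CNH they went from 1107 to 4154 for E11.5 minus E9.5 and from 49 to 1056 for E12.5 minus E11.5.

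For E13.5 minus E11.5 CNH the count went from 1 to 0 with cyclic loess, no batch term, ComBat-type adjustment, batch 2 alone, batch 3 alone (each with 1 E13.5 array) and without the 5 arrays, to 2 with the BeadChip as random block, and lay between 0 and 2 with single arrays left out. With a replicate block in the model it went from 1 to 0, and every other comparison kept its count. With batch 1 alone and the BeadChip as replicate block the counts were 5 for St1 minus RN, 3 for St1 minus NSB, 4 for St1 minus St5 and 1 for E10.5 CNH minus NSB. Of all probes, 1811, 1042, 2813 and 4361 were called in that setting, in the same order, against 487, 309, 709 and 1550 in the pooled fit. Replicates gave at most 2 pairs per comparison, with correlations from -0.369 to 0.476 between paired arrays, so the pooled fit was not paired and the blocked fits above are alternatives only. The consensus correlation within BeadChips was 0.483, and 18570 probes passed the filter on every array of a region. P minus A had 3 to 5 members called: Ripply2 was lost with an offset of 100, Notch1 gained with cyclic loess and Hes7 gained without the 5 arrays. The test over 16 regions went from 7 to 6 with an offset of 100 (Hes7 lost) and 8 with no filter (Mesp2 added). E10.5 P-CNH minus CNH and the differences of differences had 0 in every setting. The cause was not tested.

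The number of all probes called also depended on the setting, given as the pooled fit, then the lowest and highest over the alternatives and the single-array removals: P minus A 593, 380, 1816; PP minus P 172, 43, 531; St1 minus RN 487, 293, 1811; St1 minus NSB 309, 201, 1042; St1 minus CLE 23, 5, 593; St1 minus St5 709, 337, 2813; E9.5, E10.5 and E11.5 P-CNH minus CNH 37, 11, 206, then 69, 26, 621, then 35, 0, 909; E9.5 CNH minus NSB 1095, 619, 4017; E10.5 CNH minus NSB 1550, 918, 4361; E11.5 minus E9.5 CNH 1107, 200, 4154; E12.5 minus E11.5 49, 0, 1056; E13.5 minus E11.5 1531, 0, 5969; differences of differences 0, 0, 11, then 6, 2, 317, then 1, 1, 22, then 161, 97, 915; any region 7736, 6927, 13497.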
